A study of Mus musculus with 10 samples.

Results

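The comparison described here set population P1 (OSCARlow EF1alow) against population P4 (OSCARmed EF1alow), 4 libraries of the 10 in the series, taken by their deposited titles. Both came from small intestinal crypts of C57BL6/J EF1a-OSCAR mice, and the study describes the 2 replicates of each population as biological. OSCAR is a ratiometric reporter of the kinase CDK9 knocked into the Rosa26 locus and driven by the EF1a promoter, in which mCherry and the CDK9 substrate VeN90 are made from 1 mRNA. A high VeN90/mCherry ratio reports low CDK9 activity, so OSCARlow cells read as CDK9-active and OSCARmed cells as intermediate. EF1alow means low overall reporter expression, a property that both populations share. Live EpCAM+ cells were sorted, 10000 per population, and their poly-A RNA was sequenced. The labels give no age, sex or litter. The remaining populations are P2 (OSCARhigh EF1alow), P3 (OSCARlow EF1ahigh) and P5 (OSCARmed EF1ahigh). The study's plots and the deposited labels do not all place the same markers in the same populations. Labels were followed throughout, and P5 in place of P4 was run as an alternative.

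CDK9 with cyclin T forms P-TEFb, which phosphorylates the C-terminal domain of RNA polymerase II and releases the paused polymerase into elongation. In the crypt, Lgr5-positive stem cells at the base divide and give rise to transit-amplifying progenitors, and daughters that leave the cycle mature on their way to the villus, most of them as absorptive enterocytes with a brush border. Paneth cells stay at the crypt base, goblet, tuft and enteroendocrine cells are scattered, and intraepithelial lymphocytes lie between the epithelial cells.

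P1 held higher relative levels of genes of the enterocyte brush border, of cell cycle exit, interferon response and apoptosis, together with Paneth and lymphocyte genes. P4 held higher relative levels of stem cell, DNA replication, ribosomal protein and ribosome biogenesis genes. Over all 13706 genes tested, 3214 were called at an adjusted p under 0.01 by edgeR's quasi-likelihood test (Benjamini-Hochberg adjusted), which is 23.4% of them. Of these, 1920 (14%) were higher in P1 and 1294 (9.44%) were higher in P4. Called or not, 5162 of the 13706 genes had both P1 libraries above both P4 libraries, and 5526 had the reverse. Most genes thus did not overlap, and a lack of overlap alone sets no list apart. The median log2 fold change, P1 minus P4, was -0.06 over all genes tested. It was 1.76 among the genes called higher in P1 and -1.60 among those called higher in P4, and 346 genes in the first direction but 35 in the second passed 3 on the log2 scale.

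The libraries held 6242043 and 6302441 counts on genes in P1 and 5403910 and 6485823 in P4, so that 3 counts were between 4.63e-05% and 5.55e-05% of a library. Mitochondrially encoded genes took 1.14% to 1.71% of the counts in P1 and 3.42% to 3.82% in P4, and the fit also contained the P3 libraries, which stood apart with 58.6% and 35.5%. Without the P3 libraries 4441 genes were called, 2476 of them higher in P1. Values are given as normalized CPM (counts relative to a library's total), scaled by the trimmed mean of M-values (TMM), and always as P1 replicates 1 and 2, then P4 replicates 1 and 2. Each library's total was multiplied by its TMM factor, which was 0.948 and 0.950 in P1 and 1.51 and 1.56 in P4. CPM are therefore relative levels and not plain shares of the counts. Fewer cells of a type thus cannot be told apart from less RNA per cell. A total change in RNA per cell would not be seen. The scale mattered for direction. Of the called genes, 59.74% were higher in P1 with TMM, 46.89% when mitochondrial genes were left out before scaling, and 23.55% when libraries were scaled by total counts alone, where the median over all genes moved to -0.75. Where the sign of a list's median changed with this, the value is given with the list.

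**Figure D1:**
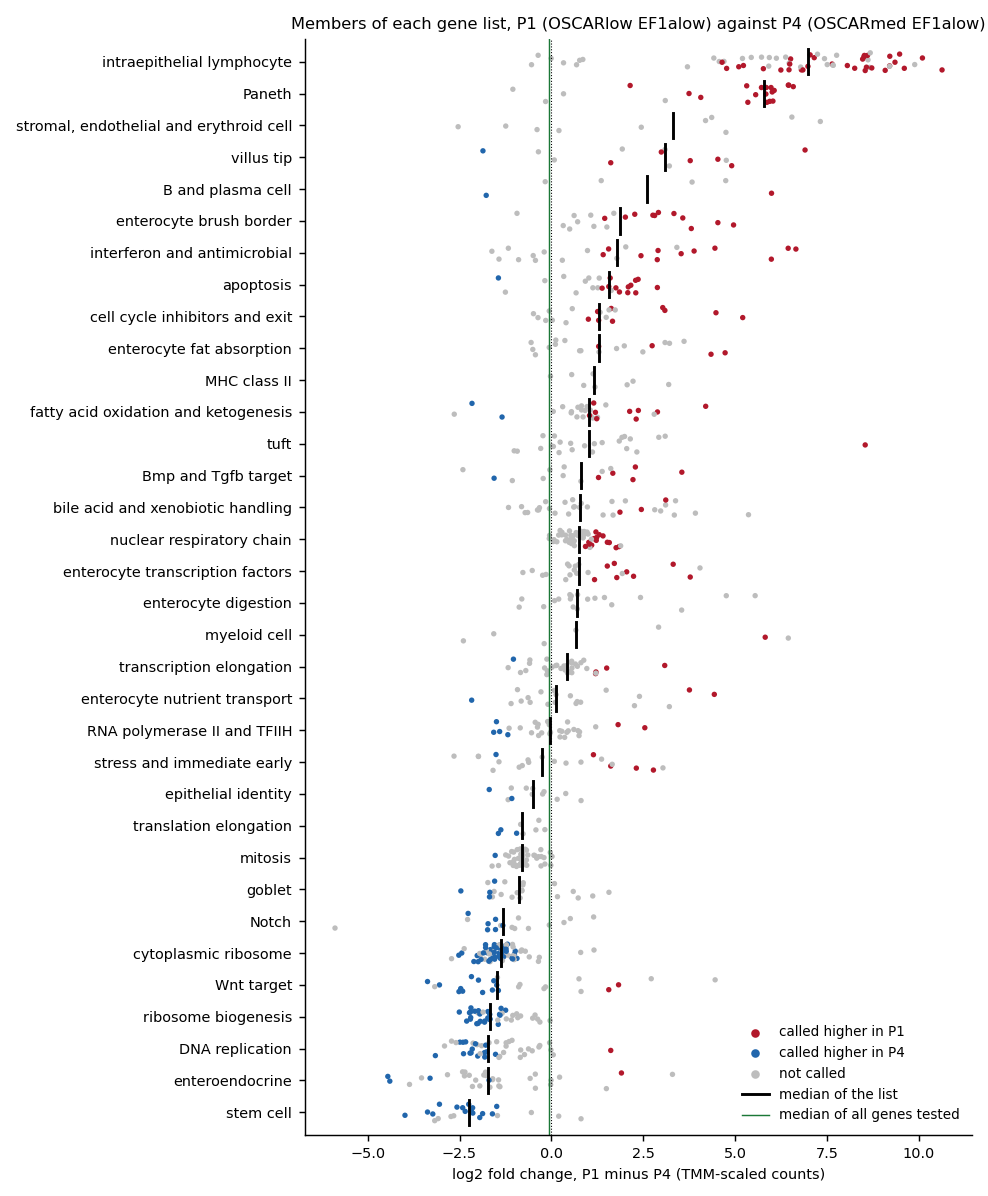
Each point is 1 gene of the list named at the left, at its log2 fold change of TMM-scaled counts, P1 minus P4, coloured by its call at an adjusted p under 0.01. Only members that passed the filter on low counts are drawn. Black bars are their medians, from 6.98 for intraepithelial lymphocyte genes to -2.25 for stem cell genes, beside the median of all genes tested at -0.06.

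The sorted cells carried epithelial RNA in every library. Epcam, the surface protein used for the sort, had 542 and 644 CPM in P1 and 907 and 997 in P4, and did not pass the test (adjusted p = 0.0771). Of 12 epithelial identity genes, 2 were higher in P4 and none of the others passed. Cdh1, the E-cadherin of adherens junctions, had 218 and 262 CPM in P1 and 698 and 851 in P4, a log2 fold change of -1.69 ± 0.34 (SE, adjusted p = 0.00465). Ocln, a tight junction protein, was the other one, with a log2 fold change of -1.08.

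Promoters of genes that carry this comparison are shown first. They belong to the 3 named genes with the largest called changes in the DNA replication and mitosis lists and the 3 in the brush border and fat absorption lists for which RefSeq gave a promoter. Each sequence is the 250 bases before the start site in GRCm38.p6, written 5′ to 3′ on the gene's strand. Capitals mark matches on either strand to motif letters. For cell cycle promoters these are the CCAAT box, the E2F site with the letters TTTNNCGC, and the cell cycle homology region or CHR element, which is written TTTGAA. For enterocyte promoters they are the core of an HNF4 site, whose letters are CAAAGT, the site of CDX2 written as TTTATNG, and the GATA factor site that is spelled AGATAA. Chaf1b lies at chr16:93883651-93883900 on the + strand, Mcm3 at chr1:20820313-20820562 on the - strand and Mcm6 at chr1:128359706-128359955 on the - strand. Espn lies at chr4:152152390-152152639 on the - strand, Fabp2 at chr3:122894822-122895071 on the + strand and Krt20 at chr11:99438154-99438403 on the - strand.
Chaf1b: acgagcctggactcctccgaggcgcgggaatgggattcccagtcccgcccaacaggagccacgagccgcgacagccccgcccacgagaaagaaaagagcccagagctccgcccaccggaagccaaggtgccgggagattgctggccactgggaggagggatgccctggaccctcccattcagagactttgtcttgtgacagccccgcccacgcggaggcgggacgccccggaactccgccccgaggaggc
Mcm3: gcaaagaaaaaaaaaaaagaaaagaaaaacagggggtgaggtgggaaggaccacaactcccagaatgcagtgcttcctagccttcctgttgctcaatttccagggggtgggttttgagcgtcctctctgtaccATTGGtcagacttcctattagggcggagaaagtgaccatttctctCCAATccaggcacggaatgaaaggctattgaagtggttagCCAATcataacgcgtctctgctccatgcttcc
Mcm6: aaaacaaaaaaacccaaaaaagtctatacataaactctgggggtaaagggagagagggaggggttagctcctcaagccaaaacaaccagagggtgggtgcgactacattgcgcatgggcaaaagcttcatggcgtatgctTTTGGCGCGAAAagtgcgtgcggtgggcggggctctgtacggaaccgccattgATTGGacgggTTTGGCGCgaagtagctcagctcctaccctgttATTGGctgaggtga
Espn: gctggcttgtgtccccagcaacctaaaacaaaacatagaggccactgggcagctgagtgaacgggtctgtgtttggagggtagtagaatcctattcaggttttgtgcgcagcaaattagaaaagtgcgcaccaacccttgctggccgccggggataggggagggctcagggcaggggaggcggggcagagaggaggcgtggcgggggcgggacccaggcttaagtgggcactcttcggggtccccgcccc
Fabp2: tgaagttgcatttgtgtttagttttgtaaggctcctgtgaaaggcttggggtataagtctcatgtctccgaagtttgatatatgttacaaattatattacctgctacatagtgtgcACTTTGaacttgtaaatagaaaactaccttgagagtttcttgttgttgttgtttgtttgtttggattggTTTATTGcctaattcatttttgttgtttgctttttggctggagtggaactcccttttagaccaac
Krt20: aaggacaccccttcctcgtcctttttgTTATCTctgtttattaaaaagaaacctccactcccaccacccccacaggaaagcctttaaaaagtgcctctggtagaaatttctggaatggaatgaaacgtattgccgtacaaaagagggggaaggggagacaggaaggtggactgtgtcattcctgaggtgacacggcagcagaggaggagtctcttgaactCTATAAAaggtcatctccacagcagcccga
The Mcm3 promoter held 3 CCAAT matches, and that of Mcm6 held 2 CCAAT and 3 E2F matches, of which the pair at -110 and -106 overlapped on opposite strands. Fabp2 had an HNF4 core at -134 and a CDX2 match at -65. Krt20 had a GATA match at -223 and a CDX2 match at -30, whose letters read as a TATA box on the gene's strand. Chaf1b and Espn had no match to the letters of their own group, the only ones marked. The longer HNF4 letters CAAAGTCCA were also searched in the enterocyte promoters, as was the HNF1 site spelled GTTAATNAT, and neither was found in these. CCAAT stood in 64.7% of 34 matched DNA replication promoters and 75.6% of 41 matched mitosis promoters, against 34.5% of all 27025 promoters in the table. E2F letters stood in 26.5%, 9.76% and 4.39% of the same sets, and the CHR element in 11.8%, 29.3% and 16.3%. Over the 10151 genes tested that had a promoter, 74.1% of those tested, the shares were 36.6% for CCAAT, 7.08% for E2F and 10.6% for the CHR element, and the CHR share of replication genes lay between these backgrounds. Under 80% of the brush border and fat absorption genes had a promoter in the table, so their shares are not given. A match describes the letters only.

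Stem cell genes were higher in P4. Of 23 tested, 15 were called higher in P4 and none in P1, and 21 had both P4 libraries above both P1 libraries, with a list median of -2.25. Lgr5 (chr10:114887367-115024836, NCBIM37), the receptor for R-spondins that marks crypt base columnar cells, had 10.5 and 9.7 CPM in P1 and 94.6 and 115 in P4. The groups did not overlap, and the level was 10.4-fold higher in P4 (log2 fold change -3.37 ± 0.31, adjusted p = 0.000903). Tnfrsf19, a TNF receptor family member and Wnt target of these cells, had 0.678 and 1.34 CPM against 12.2 and 20.3 (-3.98 ± 0.77, adjusted p = 0.00391). The RNA-binding protein Msi1 had 1.69 and 4.85 against 25.6 and 36.1, and the stem cell transcription factor Ascl2 had 4.24 and 1.34 against 20.1 and 26.1. Both were called, at -3.23 and -3.05. Olfm4, the most abundant member by CPM, had 424 and 650 CPM in P1 and 3486 and 5603 in P4, did not overlap and missed the threshold (-3.08 ± 0.81, adjusted p = 0.0143).

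Markers that have been proposed for reserve stem cells did not move as one. Lrig1, an inhibitor of ErbB receptors, had 26.9 and 39.1 CPM in P1 and 138 and 198 in P4 (-2.35 ± 0.32, adjusted p = 0.00124). Tert, the catalytic subunit of telomerase, had 2.54 and 2.68 CPM against 12.3 and 10.9 (-2.14 ± 0.41, adjusted p = 0.0037). Hopx, Bmi1 and Prox1 did not pass, with log2 fold changes of -0.54, 0.20 and -0.20. Krt19 had 744 and 539 CPM in P1 and 1303 and 1430 in P4 (adjusted p = 0.0577). Of the ErbB receptors, Erbb2 was higher in P4 at -1.60 ± 0.32 (adjusted p = 0.00484), and Erbb3 had -0.74 and did not pass.

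Wnt and Notch genes moved mostly with the stem cell genes. Of 24 genes on the Wnt target list, which also holds pathway components, 12 were higher in P4 and 2 in P1. The list median was -1.48, and several of the genes are also on the stem cell list. Myc, the transcription factor that drives growth and ribosome production, had 10.2 and 14.9 CPM in P1 and 59.3 and 79.4 in P4 (-2.47 ± 0.52, adjusted p = 0.00552). The Wnt receptor Fzd7 had 3.9 and 5.52 against 19 and 34.9. Ctnnb1, beta-catenin itself, went the other way, with 1922 and 1958 CPM in P1 and 620 and 694 in P4 (1.56 ± 0.29, adjusted p = 0.00321). Sp5, a Wnt-induced factor named after its values were seen, was the other gene higher in P1 (1.83). Scaled by total counts alone, 13 genes of the Wnt target list were higher in P4 and none in P1. Of 17 Notch pathway genes, 6 were higher in P4 and none in P1. They included the receptors Notch1 (-2.27) and Notch2 (-1.74), the ligand Dll1 (-1.72) and the sheddases Adam10 and Adam17 that cleave Notch (both -1.52).

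**Figure D2:**
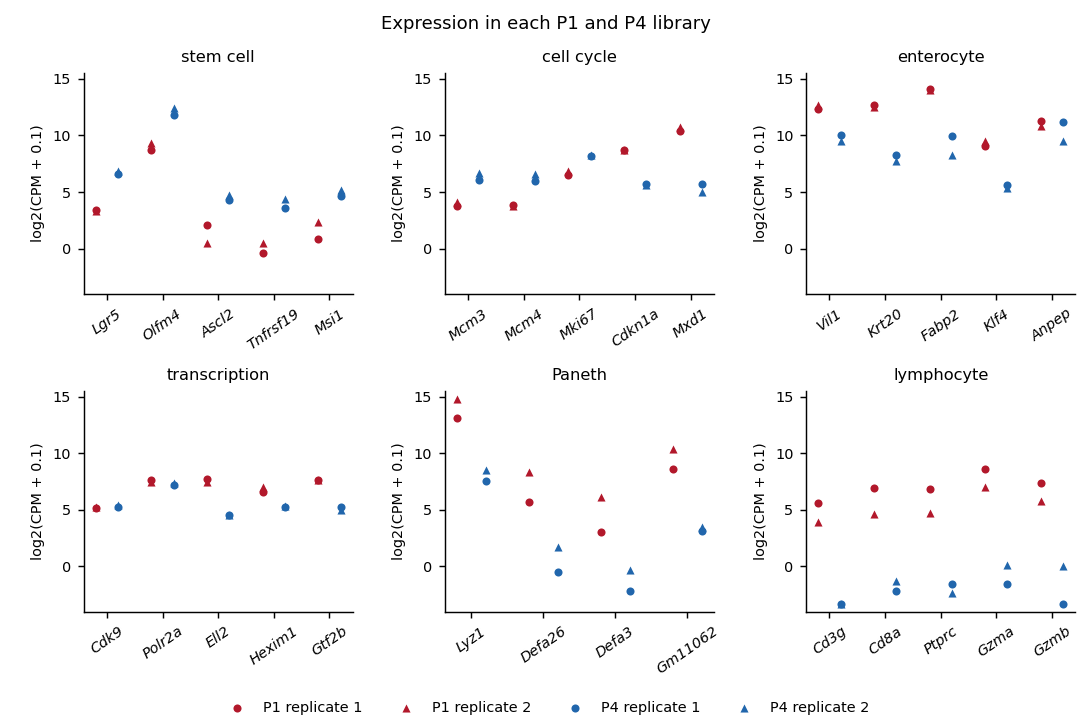
Each point is 1 library, red for P1 and blue for P4, with circles for replicate 1 and triangles for replicate 2, and the axis is log2(CPM + 0.1). Lgr5 lay at 10.5 and 9.7 CPM in P1 against 94.6 and 115 in P4, Krt20 at 6426 and 5708 against 310 and 214, and Cdk9 at 34.6 to 42.3 in all 4.

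DNA replication genes were higher in P4, while most mitosis genes missed the threshold. Of 42 replication genes, 15 were higher in P4 and 1 in P1, with a median of -1.73, and 37 had both P4 libraries above both P1 libraries. Chaf1b, a subunit of the chromatin assembly factor that loads histones behind the fork, had 3.05 and 2.34 CPM in P1 and 23.1 and 25.3 in P4 (-3.16 ± 0.56, adjusted p = 0.00279). Among the subunits of the MCM helicase, Mcm4 had 14.6 and 13.7 CPM against 64.7 and 94.2, Mcm3 13.9 and 17.7 against 67 and 101, and Mcm6 39.6 and 48.2 against 169 and 222. All of these were called, at -2.49, -2.40 and -2.15, as was Pole, the leading strand polymerase, at -2.39.

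Of 50 mitosis genes, 1 was called, Mki67, the proliferation antigen that coats mitotic chromosomes, with 89.3 and 118 CPM in P1 and 287 and 310 in P4 (-1.53 ± 0.36, adjusted p = 0.0088). The list median was -0.81, 49 of the 50 log2 fold changes lay below 0, and 43 genes had both P4 libraries above both P1 libraries. The summed level of the list was 994 and 977 CPM in P1 and 1721 and 1845 in P4. In P5, which has the same OSCAR gate and the EF1ahigh gate, it was 3574 and 5786, and 41 of the 50 were called against P1. The call for the mitosis list thus depended on which OSCARmed population was used, and that for the replication list did not, with 15 called against P4 and 15 against P5.

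Genes of cell cycle arrest were higher in P1. Of 20 inhibitors and exit genes, 9 were higher in P1 and none in P4, with a median of 1.31, and their summed level was 3466 and 4027 CPM in P1 against 692 and 686 in P4. Mxd1 (chr6:86597038-86619153, NCBIM37), which pairs with Max and opposes Myc, had 1331 and 1769 CPM in P1 and 51.6 and 32.2 in P4. That is a 37-fold difference (5.21 ± 0.77, adjusted p = 0.00149), opposite to that of Myc. Its relative Mxi1 had 190 CPM in both P1 libraries and 25.1 and 21.4 in P4 (3.03 ± 0.26, adjusted p = 0.000903). The atypical cyclin Ccng2, linked to arrest, had a log2 fold change of 4.48. Cdkn1a, the p21 inhibitor of cyclin-dependent kinases, had 415 and 432 CPM against 50.7 and 48.6 (3.09 ± 0.39, adjusted p = 0.00102). With total-count scaling 4 of the 20 were higher in P1 and none in P4.

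Brush border genes were higher in P1, and genes of digestion did not pass. Of 20 brush border genes, 11 were higher in P1 and none in P4, with a median of 1.86 and a summed level of 25543 and 26880 CPM in P1 against 5629 and 4223 in P4. With total-count scaling 8 were higher in P1 and 1 in P4. Espn, the actin bundler espin of microvilli, had 260 and 424 CPM in P1 and 13.4 and 8.63 in P4 (4.96 ± 0.59, adjusted p = 0.00091). Krt20 (chr11:99289717-99299464, NCBIM37), a keratin of differentiated enterocytes and goblet cells, had 6426 and 5708 against 310 and 214, 23.1-fold higher in P1 (4.53 ± 0.73, adjusted p = 0.00197). Pls1, plastin of the microvillus core, had 2548 and 2952 against 267 and 194 (3.58 ± 0.59, adjusted p = 0.00209). Vil1, villin, had 5311 and 6718 against 1063 and 708, at 2.76, and Tmigd1, an adhesion protein of the brush border, was higher at 3.81. The groups did not overlap for any of these 5.

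None of 19 digestion genes, which encode brush border hydrolases, was called, at a median of 0.71. Both P1 libraries were above both P4 libraries in 7 of them, as in 5162 of all 13706 genes tested. Anpep, aminopeptidase N, had 2551 and 1797 CPM in P1 and 2322 and 745 in P4, so that the groups overlapped (0.50 ± 0.79, adjusted p = 0.628). The summed level of the digestion list was 10865 and 7201 CPM in P1 and 10928 and 4357 in P4. With total-count scaling the median was 0.02. The list as a whole thus varied more between the P4 replicates than between the populations. Its sum was higher in replicate 1 than in replicate 2 in both populations. With the replicate number as a block, 1 digestion gene was called higher in P1, at a median of 0.80. Of 21 nutrient transport genes, 2 were higher in P1 and 1 in P4, with a median of 0.13 that turned to -0.09 without mitochondrial genes and to -0.56 with total-count scaling. Cybrd1, the duodenal ferric reductase, was at 3.22 and 11.9 CPM in P1 and 0.369 and 0.298 in P4 (4.44). Slc9a3r1, the scaffold NHERF1 that anchors transporters in microvilli, was 13.5-fold higher in P1 (3.76 ± 0.75, adjusted p = 0.00459). Slc1a1, a transporter of glutamate and aspartate, was higher in P4, with 14.9 and 20.9 CPM against 72.9 and 88.4 (-2.17 ± 0.27, adjusted p = 0.00102).

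Of 20 fat absorption genes, 4 were higher in P1 and none in P4, with a median of 1.29, and 3 with total-count scaling. The number called higher in P1 was 2 against P5, 9 in the fit that blocked on replicate number, and 9 at an adjusted p under 0.05. It thus depended on the setting. Leaving out 1 library lowered or removed calls over all genes, so those fits do not single out this list. The list median was then 0.97 and 1.32 without P1 replicate 1 and 2, and 1.41 and 1.11 without P4 replicate 1 and 2. Fabp2 (chr3:122597990-122602424, NCBIM37), the intestinal fatty acid binding protein, had 17931 and 16605 CPM in P1 and 994 and 308 in P4, 26.5-fold higher in P1 (4.73 ± 1.09, adjusted p = 0.00843). Apoc3, an apolipoprotein of chylomicrons, had 1313 and 805 against 79.7 and 24.5 (4.35 ± 1.03, adjusted p = 0.00933). Plin3 and Plin2, which coat lipid droplets, were higher at 2.74 and 1.29. Among enterocyte transcription factors, 8 of 23 were higher in P1 and none in P4, at a median of 0.75 that fell to 0.05 with total-count scaling, where 2 were called. Klf4, a factor of post-mitotic epithelium, had 522 and 710 CPM against 49.4 and 40.3 (3.78 ± 0.37, adjusted p = 0.000903). Maf was higher at 3.32 and the nuclear receptors Pparg and Hnf4g at 2.24 and 2.05. Hnf4a had 1165 and 1408 CPM in P1 and 720 and 875 in P4 and did not pass (0.69 ± 0.31, adjusted p = 0.104).

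Genes that mark the upper villus were among those with the largest differences. Of 13, 6 were higher in P1 and 1 in P4, with a median of 3.09. Ada, adenosine deaminase, had 463 and 816 CPM in P1 and 3.07 and 7.44 in P4, 122-fold higher (6.91 ± 1.16, adjusted p = 0.00228). Nt5e, the ectonucleotidase CD73 that makes adenosine, had 27.6 and 12.5 against 0.369 and 0.893 (4.91). Krt20 and Klf4, described above, are also on this list, as are Junb and Apobec1. The 1 member higher in P4, Egfr, the receptor for epidermal growth factor, was named after its values were seen (-1.86 ± 0.44, adjusted p = 0.0096). The Bmp and Tgfb target list also holds receptors, ligands and Smads of these pathways. Of 15 of its genes tested, 5 were higher in P1 and 1, Tgif1, in P4. The pseudoreceptor Bambi had 8.81 and 42 CPM against 1.23 and 2.98, and the inhibitor Smad7, the helix-loop-helix genes Id2 and Id1 and the common mediator Smad4 were higher at 2.22, 2.29, 1.67 and 1.28. With total-count scaling no gene of this list was higher in P1, and 1 was higher in P4. Tgif1 was named after its values were seen.

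The genes closest to what the reporter measures did not pass the test at the level of mRNA. Cdk9 (chr2:32561304-32568596, NCBIM37), the kinase of P-TEFb, had 34.6 and 39 CPM in P1 and 37.8 and 42.3 in P4, overlapping groups with a log2 fold change of -0.12 ± 0.19 (adjusted p = 0.624). Its partner Ccnt1, cyclin T1, had 30.3 and 30.1 against 41.9 and 49.3 (-0.59 ± 0.20, adjusted p = 0.0373) and did not pass. Polr2a, the large subunit that carries the phosphorylated domain, had 203 and 175 against 148 and 162 (0.28 ± 0.22, adjusted p = 0.308). Of 33 transcription elongation genes, 4 were higher in P1 and 1 in P4. Neither share exceeded those of all genes tested, 14% and 9.44%. The list median was 0.42. With total-count scaling it turned to -0.28, and 1 gene was higher in P1 and 1 in P4. Ell2, a subunit of the super elongation complex, had 208 and 180 CPM in P1 and 23.1 and 22.6 in P4 (3.09 ± 0.44, adjusted p = 0.00137). Hexim1, which holds P-TEFb inactive in the 7SK particle, had 92.8 and 130 against 38.2 and 40.1 (1.51 ± 0.29, adjusted p = 0.00368). The super elongation scaffolds Aff1 and Aff4 were higher at 1.21 and 1.20. Those 4 held both activators of elongation and an inhibitor of P-TEFb, and their number does not set the list apart. The 1 gene higher in P4, Supt16h of the histone chaperone FACT, was named after its values were seen.

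Of 30 genes of RNA polymerase II and its general factors, 2 were higher in P1 and 4 in P4. Gtf2b, TFIIB, had 203 and 194 CPM in P1 and 37.3 and 30.8 in P4 (2.54 ± 0.29, adjusted p = 0.000903), and Gtf2f1 of TFIIF was higher in P1 at 1.82. The TFIIH subunits Gtf2h2 and Ercc2 were higher in P4 at -1.57 and -1.49. The list median was -0.03, and -0.73 with total-count scaling.

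Genes of ribosomes and their assembly were higher in P4. Of 77 cytoplasmic ribosomal protein genes, 46 were higher in P4 and none in P1, 75 had log2 fold changes below 0, and the median was -1.38. Their summed level was 4731 and 3986 CPM in P1 and 10433 and 11050 in P4. Rpl10a had 7.45 and 10.5 against 57.4 and 46, and Rpl12 had 4.91 and 5.69 against 28 and 29.7, at -2.52 and -2.44. Rpl4, the member with the highest CPM, had 606 and 556 CPM against 1240 and 1266, without overlap, and missed the threshold (adjusted p = 0.0135). Many ribosomal protein genes have processed pseudogenes that share their reads, and reads with several alignments were not counted, so single values of this family are uncertain.

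Of 40 ribosome biogenesis genes, 25 were higher in P4 and none in P1, with a median of -1.68, and 38 had both P4 libraries above both P1 libraries. Polr1a and Polr1b, the 2 large subunits of RNA polymerase I, had 10.3 and 16.6 against 62 and 64.2 CPM and 12.2 and 8.7 against 45.2 and 51.2 (-2.23 ± 0.30 and -2.20 ± 0.24). Utp14a of the small subunit processome had 5.93 and 6.36 against 34.8 and 35.2 (-2.51 ± 0.25, adjusted p = 0.000903). The nucleolar protein Ncl was higher in P4 at -1.41. Of 8 translation elongation genes, 3 were higher in P4. Those were Eef1b2 (-1.44), Eef1g (-1.38) and Eef1d (-0.95), the exchange factor subunits of EF1. Eef1a1, which encodes EF1a itself, had 1812 and 1468 CPM in P1 and 2724 and 2870 in P4 and did not pass (-0.77 ± 0.33, adjusted p = 0.0898).

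Among metabolic genes, the lists differed in how far their calls held. Of 51 nuclear-encoded respiratory chain genes, 15 were higher in P1 and none in P4, 47 had both P1 libraries above both P4 libraries, and the median was 0.76. With total-count scaling none was called and the median was 0.07, so this direction rests on the scaling. Ndufb3 of complex I had 165 and 99.5 CPM against 38.1 and 35.5 (1.84 ± 0.30, adjusted p = 0.00215). Of 29 genes of fatty acid oxidation and ketogenesis, 9 were higher in P1 and 2 in P4, with a median of 1.04. Those 2, named after their values were seen, were Cpt1a, which carries fatty acids into mitochondria (-1.34), and the coactivator Ppargc1b (-2.16). With total-count scaling 3 were higher in P1 and 3 in P4. The peroxisomal bifunctional enzyme Ehhadh had 456 and 367 CPM in P1 and 91.3 and 74.8 in P4 (2.31 ± 0.24, adjusted p = 0.000903), and the mitochondrial Hadh was higher at 2.13. Of 32 bile acid and xenobiotic genes, 3 were higher in P1, a smaller share than the 14% of all genes tested. With the replicate number as a block 9 were higher in P1. With total-count scaling 2 were higher in each population and the median moved from 0.79 to 0.10. The largest called difference was that of the monooxygenase Fmo5, with 1362 and 855 against 178 and 77.6 (3.11 ± 0.72, adjusted p = 0.00848).

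Several interferon-stimulated genes were higher in P1, while the sum of their list, which also holds antimicrobial and other genes, was not. Of 23 interferon and antimicrobial genes, 11 were higher in P1 and none in P4, with a median of 1.78, against 7 and 2 with total-count scaling. Ifit1, which binds viral RNA, had 176 and 122 CPM in P1 and 2.58 and 0.893 in P4 (6.45 ± 0.90, adjusted p = 0.00128). The ubiquitin-like Isg15 had 98.3 and 53 against 1.6 and 0.794, 63.3-fold higher in P1 (5.99 ± 0.63, adjusted p = 0.000903). Irf7, the factor that induces interferon genes, had 259 and 276 against 14 and 10.4 (4.45 ± 0.55, adjusted p = 0.000952). The summed level of the list was 3898 and 4764 CPM in P1 and 5931 and 6442 in P4, in the other direction. The member with the highest CPM was Pigr, the receptor that carries IgA across the epithelium, with 1518 and 1848 against 3362 and 4218 (adjusted p = 0.0339). Pigr made most of the P4 sum, so the sum does not describe the interferon-stimulated members.

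Of 23 apoptosis genes, 12 were higher in P1 and 1 in P4, with a median of 1.56 and a summed level of 3503 and 3383 CPM in P1 against 1070 and 1024 in P4. They included both sides of the pathway. Pmaip1, the killer protein Noxa, was higher at 2.89 ± 0.34 (adjusted p = 0.000904), and the protective Bcl2l1 at 2.30 ± 0.40 (adjusted p = 0.00256). Trp53, named after its values were seen, was the 1 member higher in P4, at -1.44. With total-count scaling 3 members were higher in P1 and none in P4. Of 21 stress and immediate early genes, 4 were higher in P1 and 1 in P4, against 1 and 1 with total-count scaling. Klf6 had 321 and 354 CPM against 44.5 and 53.9 (2.78), Ddit3 and Junb were higher in P1 at 2.31 and 1.62, and the chaperone Hsph1 was higher in P4 at -1.51. Fos, which responds to handling within minutes, had overlapping values of 168 and 271 against 192 and 222.

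Paneth genes were higher in P1 by amounts that differed between its replicates. Of 22, 18 were higher in P1 and none in P4, with a median of 5.78. Lyz1 (chr10:116724852-116729924, NCBIM37), the Paneth lysozyme, had 9008 and 28123 CPM in P1 and 184 and 370 in P4, 67-fold higher (6.07 ± 1.27, adjusted p = 0.00543). The alpha-defensin Defa26 had 51.8 and 326 against 0.614 and 3.17. In all 18, P1 replicate 2 was above P1 replicate 1, and the ratio of replicate 1 to replicate 2 had a median of 0.296. The list took 2.04% and 6.70% of the counts in P1, 0.136% and 0.244% in P4, and 42.0% and 31.7% in P2, so that P1 replicate 1 held a median of 3.95% and replicate 2 of 14.5% of the P2 level of each gene. Without P1 replicate 2, 7 Paneth genes were called, and against P5, which held 1.63% and 0.476%, 1 was called. Defensins are near-identical copies, so reads shared between them were not counted and their single values are uncertain.

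Calls among genes of the other secretory cells were small in number, where 9.44% of all genes tested were higher in P4 and 14% in P1. Of 22 goblet genes, 4 were higher in P4 and none in P1, with a median of -0.89 and 16 log2 fold changes below 0. Clca1 had the largest of the called changes (-2.46). The mucin Muc2 had 255 and 431 CPM in P1 and 1140 and 880 in P4 and did not pass (adjusted p = 0.041). Of 32 enteroendocrine genes, 4 were higher in P4 and 1 in P1, with a median of -1.74. Among the 32, 28 had log2 fold changes below 0, and 22 had both P4 libraries above both P1 libraries. Neurog3, the factor that starts this lineage, had 0.678 and 0.502 against 14.7 and 11.9 (-4.45 ± 1.01, adjusted p = 0.00764), the hormone Cck had 0.678 and 1.67 against 31.7 and 18.9 (-4.40 ± 0.74, adjusted p = 0.00233), and the factor Nkx2-2 was at -3.30. Ddc, the decarboxylase of serotonin synthesis, was higher in P1 at 1.91. Of 24 genes on the tuft list, whose median was 1.01, 14 had both P1 libraries above both P4 libraries and 2 the reverse. Only 1 was called, higher in P1, and that was Ptprc, the pan-leukocyte antigen CD45, which the lymphocyte list also holds. The tuft kinase Dclk1 did not pass (52 and 22.9 against 22.5 and 17.6 CPM).

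Genes of intraepithelial lymphocytes had the largest median difference of the 34 lists among members that passed the filter on low counts. Of 93 on the list, 63 passed that filter. Since a gene near 0 in P4 passes it only where P1 is high, neither the count of calls among them nor their median is a measure of the list. Without the filter the median was 6.19 over 91 members, beside 5.66 for the Paneth list. Of the 63, 32 were higher in P1 and none in P4. Their median was 6.98, or 6.25 with the 15 genes at 0 in both P4 libraries set at the bound of 3 counts. Cd3g (chr9:44777655-44788514, NCBIM37), a subunit of the T cell receptor complex, had 48.6 and 15.1 CPM in P1 and 0 in both P4 libraries, at least 193-fold higher against a floor of 3 counts over the group. Klrd1, the natural killer receptor CD94, had 37.1 and 6.86 against 0 and 0, at least 133-fold higher. Cd8a, the coreceptor of cytotoxic T cells, had 122 and 23.9 against 0.123 and 0.298, and the granule protease Gzma had 392 and 130 against 0.246 and 0.992. Ptprc had 113 and 25.8 against 0.246 and 0.0992. Gzmb and Cd3e were of the same kind and missed the threshold (adjusted p = 0.0103 and 0.0156). The list also holds genes that epithelium expresses, of which Ucp2 had 861 and 540 against 493 and 378 CPM and did not pass.

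Lymphocyte genes did not follow the other genes within P1. All 32 called members were higher in P1 replicate 1 than in replicate 2, by a median ratio of 3.26 with a range from 2.16 to 5.41, opposite to the Paneth genes. Over all 1920 genes called higher in P1 the median ratio was 1.01, and over the brush border list it was 0.920. A ratio of at least 2.99, the lower quartile of the called lymphocyte genes, was found in 51 of the 1920 genes (2.66%), against 4.02% of all genes tested. Of those 51, 27 were not on the list. Among the 10 genes with the largest differences in P1 named by the rule, 8 were on the list or had such a ratio, and these include Hmha1 with a ratio of 5.62. The other 2 did not share it. Sgk2, a kinase of the SGK family, had 43.4 and 48 CPM in P1 and 0 and 0.0992 in P4, and Npl, a lyase of sialic acid, had 201 and 262 against 0.369 and 0.496 (8.98 ± 1.55, adjusted p = 0.00247).

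**Figure D3:**
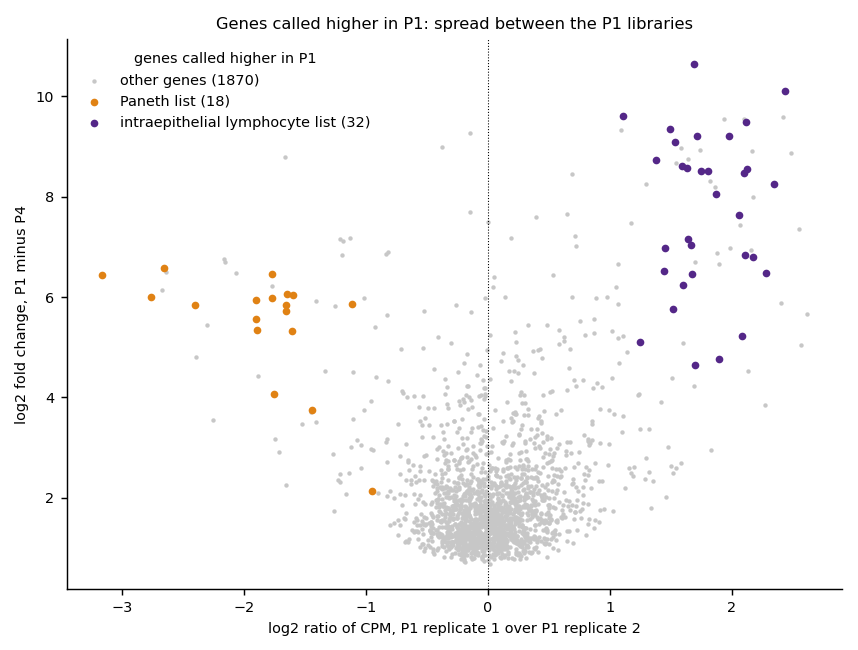
Each point is 1 of the 1920 genes called higher in P1, at the log2 ratio of its CPM in P1 replicate 1 to replicate 2 (horizontal) and its log2 fold change, P1 minus P4 (vertical). The 32 lymphocyte genes (purple) lie to the right, the 18 Paneth genes (orange) to the left, and the rest centre on a ratio of 1.01.

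By its share of counts, the lymphocyte list was a small part of P1, which was sorted as EpCAM+, a gate that lymphocytes as such should not enter. The list took 0.320% and 0.123% of the counts in P1, 0.0849% and 0.0749% in P4 and between 0.0466% and 0.0829% in the other 6 libraries. Its summed level was 3378 and 1301 CPM in P1 and 563 and 482 in P4. Most of the P4 sum was Ucp2, the gene of epithelium given above, so the P4 share is not a measure of lymphocytes. Lymphocytes also express genes off the list, so their part of the RNA in P1 was not measured. When the whole list was removed before scaling, 3204 genes were called, and 1888 of the 1920 genes higher in P1 and 1291 of the 1294 higher in P4 remained. The 32 called members were lost because they were removed, and the counts of every other gene stayed as they were. Lymphocyte reads in genes off the list were kept, so this removal cannot show what lymphocytes contribute. Left in, the list makes 1.67% of the genes called higher in P1. Leaving out P1 replicate 1, which held the most lymphocyte counts, left 1 lymphocyte gene called, and 5 brush border genes higher in P1, 4 stem cell genes, 13 ribosomal protein genes and 1 replication gene higher in P4. Leaving out P1 replicate 2 instead left 20, 6, 8, 10 and 3. Medians of these epithelial lists kept their size: 1.86 and 1.79 for the brush border and -2.10 and -2.48 for the stem cell list. With the lymphocyte level as a covariate, no gene was called at 0.01 by edgeR's quasi-likelihood test (4171 at an unadjusted p under 0.05, 1448 at an adjusted p under 0.05). No other tool was run with it. The covariate, the log2 of the list's summed CPM with Ucp2 included, has its 2 highest values in the P1 libraries. It and the difference between the populations therefore cannot be told apart.

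The number of calls depended on every library, and where 1 library was left in a population, it was assumed to vary like the other groups. Without P1 replicate 1 there were 833 calls and without P1 replicate 2 there were 1172, with 3763 and 4232 at an adjusted p under 0.05. Without P4 replicate 1 or P4 replicate 2 there were 0 by edgeR's quasi-likelihood test, with 5612 and 5301 genes at an unadjusted p under 0.05 and 3342 and 2785 at an adjusted p under 0.05. The smallest adjusted p was then 0.0111 and 0.0151, just above the threshold. No other tool was run on these 3 libraries. DESeq2's Wald test on all libraries called 4455. With P5 in place of P4, 2715 genes were called, and 1479 of the 1920 and 1018 of the 1294 were shared with the comparison reported. No alternative called any gene in the opposite direction to the one reported.

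**Figure D4:**
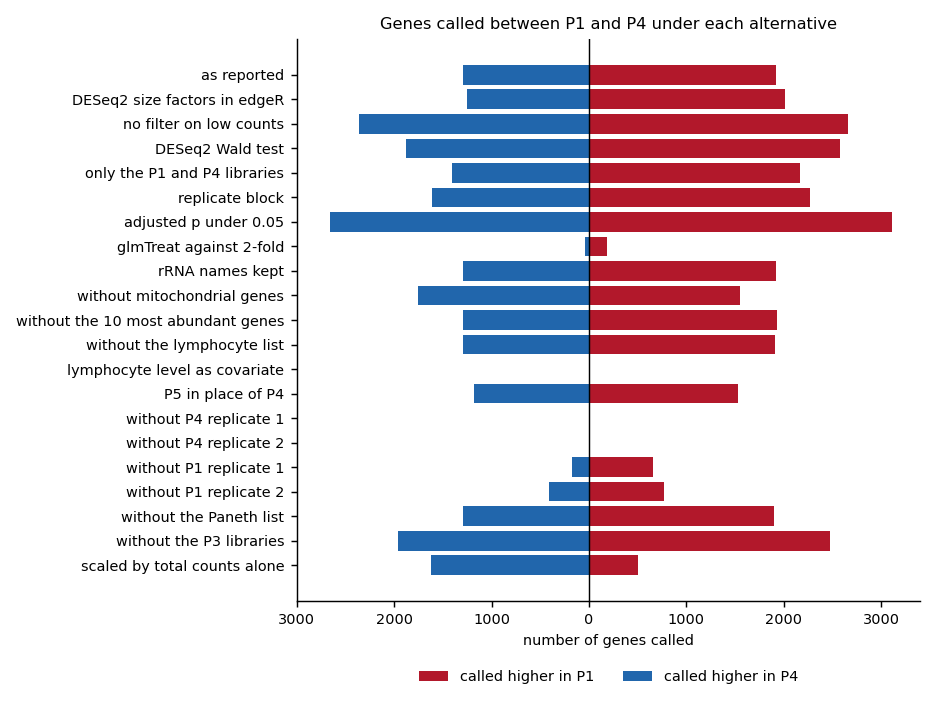
Bars to the right give the number of genes called higher in P1, and bars to the left the number called higher in P4, under each alternative. Removing the lymphocyte list left 1910 and 1294 against the 1920 and 1294 reported, and total-count scaling left 500 and 1623. The removal takes out the list's own members and leaves the counts of other genes as they were.

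Few markers of other cells were called. Of 18 B and plasma cell genes 6 were tested, with 1 higher in P1 and 1 in P4, and the summed level was 94.4 and 117 CPM in P1 against 105 and 129 in P4. Ighm had 10 and 6.19 CPM against 0 and 0.198, a count ratio of 73.6 (95% interval 19.8 to 617, counting error only), and the syndecan Sdc1, which epithelium also carries, was higher in P4 at -1.77. The summed level of the myeloid list was 115 and 126 CPM in P1 against 43.7 and 51.1 in P4. Without the filter on low counts its median was 4.29 over 20 members, with 4 higher in P1 and none in P4. With the filter, 7 myeloid genes were tested (median 0.67, and -0.02 with total-count scaling). Of these, 1 was higher in P1, the lysozyme paralog Lyz2. It had 27.3 and 64.9 CPM against 0 and 1.49, the same order of the P1 replicates as Lyz1. None of 10 stromal, endothelial and erythroid genes was called, at summed levels of 20.9 to 54.4 CPM in the 4 libraries. None of 8 MHC class II genes was called. Cd74, the invariant chain, had 62.7 and 398 CPM in P1 and 21.4 and 188 in P4, and the groups overlapped (adjusted p = 0.533). The part of Paneth and other cells in the epithelial results was not tested.

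The remaining genes with the largest differences to P4 were not of 1 kind. They were Dmpk, a kinase (-3.85), Sema3c, a secreted semaphorin (-3.75), Scn2b, a sodium channel subunit (-3.58), and Nav1, a neuron navigator (-3.57). Slc1a2, a glutamate transporter (-3.41), Hspg2, the basement membrane proteoglycan perlecan (-3.37), and Hsd11b2, which inactivates glucocorticoids (-3.22), completed them. Sema3c had 1.52 and 2.01 CPM in P1 and 31.6 and 16.6 in P4 (adjusted p = 0.000915), and Hspg2 had 3.73 and 8.87 against 50 and 80.8 (adjusted p = 0.00116). Counting on exons disregarded strand, so the reads of a gene may include some from a gene on the opposite strand. Overlap of exons was not checked. Overlap of whole gene spans, introns included, applies to 1015 of the called genes. Among those named it applies to Vil1 (Usp37), Fabp2 (4933405D12Rik), Irf7 (Phrf1), Lrig1 (Slc25a26), Adam17 (Iah1), Rpl12 (Lrsam1) and Acaa1a (Myd88), to Lgr5, Msi1, Cd7, Notch1, Dll1, Ctnnb1, Pole, Mxi1, Maf, Slc1a1, Slc1a2, Scn2b, Utp14a, Polr1a, Ercc2, Neurog3, Nkx2-2, Ddc, Ccnt1, Hnf4a and Ddit3, and to Gtf2b, Ehhadh and Erbb2, which hold a U6 copy.

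By the labels, the same step from OSCARmed to OSCARlow exists in the EF1ahigh gates, as P3 against P5, and the difference between the 2 steps was tested. It passed an adjusted p of 0.01 in 111 of the 13706 genes (0.81%), with 66 above 0 and 45 below. Klf4 had 522 and 710 CPM in P1 and 49.4 and 40.3 in P4, but 61.6 and 50.2 in P3 and 60 and 40.5 in P5, a difference between the steps of 3.63 ± 0.48 (adjusted p = 0.00887). For Isg15 the P3 libraries had 4.25 and 4.66 CPM and the P5 libraries 6.42 and 2.22, and the difference between the steps was 5.92 ± 0.84. Slc1a1 went in opposite directions, with 197 and 135 in P3 and 63.6 and 83.9 in P5, and the step within EF1ahigh alone did not pass (adjusted p = 0.317). Utp14a and Polr1b, higher in P4 than in P1, had 35.6 and 38.4 in P3 against 34.7 and 35.6 in P5, and 55.2 and 44 against 48.9 and 46.8. Mxi1 (2.81) and Sdc1 (-2.17) also differed between the steps. The study's plots and the labels conflict for P2 and P3. The libraries titled P3 held 0.224% and 0.264% Paneth counts and those titled P2 held 42.0% and 31.7%, and if the P3 titles do not mark the OSCARlow EF1ahigh cells, the 111 genes are not a difference between the EF1a gates. Mitochondrial counts in P3 move with this comparison, and their part in it was not tested.

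**Figure D5:**
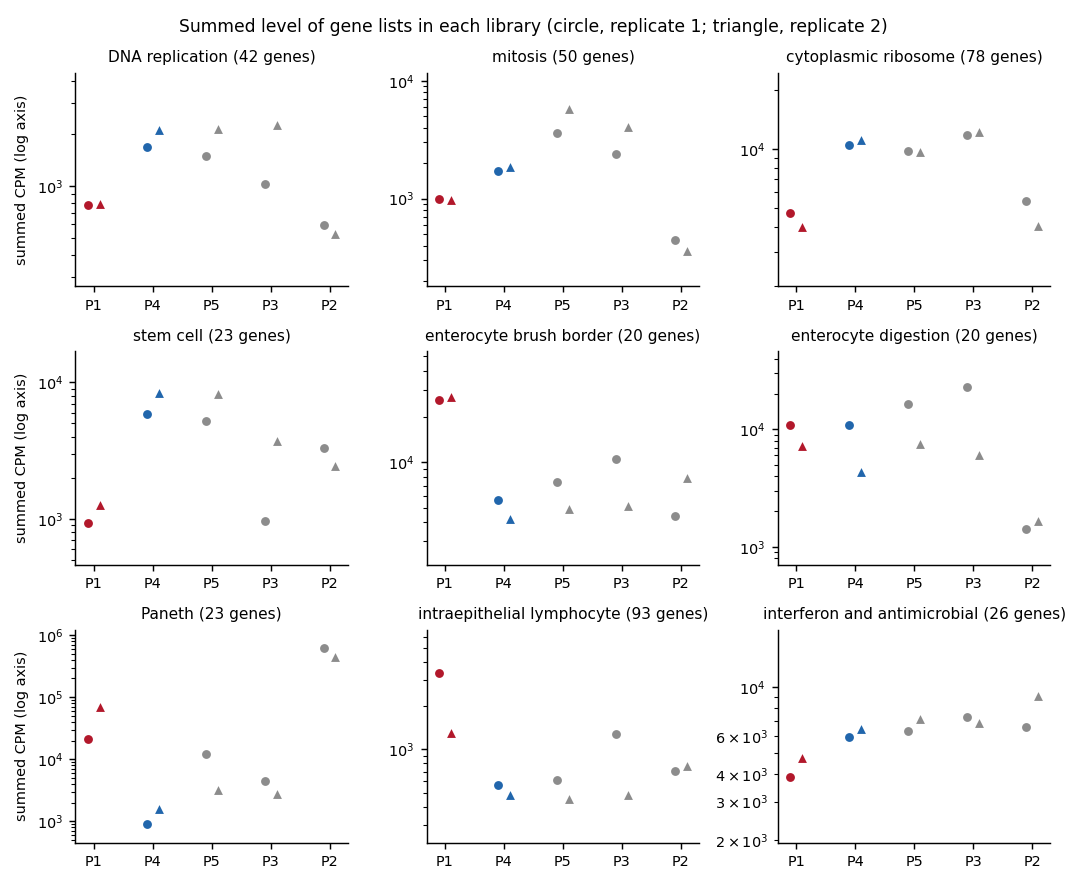
Each point is the summed CPM of 1 gene list in 1 library, on log axes, with P1 red, P4 blue and the other populations grey, circles for replicate 1 and triangles for replicate 2. Summed brush border levels were 25543 and 26880 CPM in P1 and 5629 and 4223 in P4, and those of Paneth genes spread from 901 CPM in P4 replicate 1 to 612360 in P2 replicate 1.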

How the data were processed

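Poly-A RNA of sorted crypt cells was sequenced on a NextSeq 500. The values the authors deposited are raw counts of reads per gene, made with TopHat2 2.1.0 (Bowtie) on mm9 and HTSeq 0.11.2 on exons, without regard to strand, after FastQC 0.11.5. Replicates were not pooled. Reads with several alignments were not counted, so paralogs are uncertain.

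Samples were grouped by title. The summary rows of the counter, 185 rRNA names and a row without a gene name (11 to 33 counts per library) were removed. Counts were filtered with filterByExpr, scaled by TMM and fitted as 5 population means over all 10 libraries with edgeR 4.0.16 (R 4.3.3), with 5 residual degrees of freedom. P1 was tested against P4, and (P1 minus P4) against (P3 minus P5), with edgeR's quasi-likelihood test and Benjamini-Hochberg adjustment over the 13706 genes tested, at an adjusted p under 0.01. CPM are TMM-scaled. The standard error of each log2 fold change is that change divided by the square root of its F statistic. An exact test on 1 gene with 2 libraries a group cannot reach 0.05. Nothing in the labels says that replicates came from separate animals, though the study calls them biological, so p-values measure the spread between these samples.

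The gene lists, members and tests were chosen with earlier results of these data known. Named genes are the 10 with the largest change in each direction among genes called, without overlap between P1 and P4 and with a mean CPM of at least 10, and in each of the 34 lists the 4 called members with the largest change and the member with the highest CPM, together with 31 genes of stem cell, transcription and marker interest. A few genes that this rule takes are not reported here. Of 987 list entries 984 matched a row name, 17 of them by an older name. Positions came from the GENCODE annotation of NCBIM37, which held 33643 of the 35006 row names. Promoters came from RefSeq (GRCm38.p6), which matched 10151 of the 13706 genes tested (74.1%).

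The replicates of P1 and of P4 differed by more than sampling noise, with a chi-square per gene of 45.1 and 19.7 and a Pearson correlation of log2 CPM across genes of 0.953 and 0.971. Genes are not independent replicates. On simulated data with 197 genes changed 4-fold among 13230, the test called 83 of them and 1 unchanged gene for P1 against P4. The simulated populations otherwise shared the same mean profile, and far fewer genes differed than were called here. The simulation thus does not measure the power or the false calls of the reported comparison. Intervals and the floor of 3 counts cover counting error only. DESeq2 1.42.0 served for alternatives. Figures were drawn with matplotlib 3.10.9, and tables were made in Python 3.11.15 with numpy 2.4.6, pandas 2.3.3 and scipy 1.17.1. The fluorescence, organoid and single-cell data of the study were not used here.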

Additional observations from a re-analysis of the deposited data

Results flagged for a closer look

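The difference from OSCARmed to OSCARlow itself differed between the EF1alow and the EF1ahigh gates in 111 genes, by a test of the difference of the 2 steps (edgeR's quasi-likelihood test, adjusted p under 0.01), with 66 above 0 and 45 below. At an unadjusted p under 0.05 there were 4655. No gene was called for P3 against P5 alone, so a gene called between P1 and P4 is not by that shown to differ between the gates. Lists with members among the 111 were the cytoplasmic ribosome (3 of 77, all below 0), ribosome biogenesis (2 of 40, both below 0), and 1 gene each of nutrient transport, the enterocyte transcription factors, the cell cycle inhibitors, the villus tip, Paneth, B and plasma cell and interferon lists. Among the named genes they were Isg15, Klf4 and Mxi1 above 0 and Slc1a1, Utp14a, Polr1b and Sdc1 below 0. The labels of P2 and P3 conflict with the study's plots, so the P3 libraries may not be the OSCARlow EF1ahigh population, and the 111 genes are a difference between the gates only if they are. Mitochondrial genes took 58.6% and 35.5% of the counts of the P3 libraries. Without mitochondrial genes the count was 375, and the cause of that change was not tested.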

How the results depend on the processing

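As reported, 3214 genes were called (1920 higher in P1, 1294 higher in P4). At an adjusted p under 0.05 there were 5777 (3117 and 2660), without a filter on low counts 5026 (2366 higher in P4), and with glmTreat against a 2-fold change 234 (190 and 44). No gene was called with the lymphocyte level as a covariate (0 in either direction, 4171 at an unadjusted p under 0.05). Alternatives chosen after seeing the data were removing the Paneth list (3202), leaving out the P3 libraries (4441, with 1965 higher in P4) and scaling by total counts alone (2123, with 500 higher in P1). DESeq2's size factors, its Wald test (4455), the P1 and P4 libraries alone (3579), keeping rRNA names, and removing mitochondrial genes (3301), the 10 most abundant genes or the lymphocyte list, as well as P5 in place of P4 (2715), kept the total within 1.5 times. Leaving out each of the 4 libraries in turn gave 0 to 1172 calls, 0 to 767 higher in P1 and 0 to 405 higher in P4, with 0 called without P4 replicate 1 or 2 and 833 without P1 replicate 1. The difference between the 2 EF1a gates, 111 genes, became 2370 at an adjusted p under 0.05, 2002 with DESeq2's Wald test and 375 without mitochondrial genes. The cause of these changes was not tested.

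The labels number the replicates of each population. After subtracting population means, libraries with the same number had a correlation of 0.306 between P1 and P4, and between -0.0598 and 0.554 over the 10 pairs of populations, so the numbers are treated as shared names. With the replicate number as a block, 3881 genes were called (2268 and 1613), 1913 and 1291 of them shared with those reported, and the difference between the gates gave 593. Among the lists, the block moved calls higher in P1 from 4 to 9 for fat absorption, from 3 to 9 for bile acid and xenobiotic genes, from 9 to 15 for fatty acid oxidation and from 0 to 2 for MHC class II, where Cd74 missed the threshold (adjusted p = 0.0156).

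None of the genes that changed sign was called as reported, though without a filter on low counts Cd74 (1.09, adjusted p = 0.00076) and Adh1 (1.94, adjusted p = 3.23e-07) were called, and DESeq2's Wald test called Adh1 (2.01, adjusted p = 0.00436). Anpep was at -1.79 with the lymphocyte covariate, -0.13 against P5 and -0.18 by total counts. Hnf4a (-0.0046), Cd24a (-0.17), Ucp2 (-0.0041), Polr2a (-0.41), Bmi1 (-0.49) and Fos (-0.61) turned with total counts. With the lymphocyte covariate Polr2a was at -0.041, Adh1 at -0.32, Ucp2 at -0.56, Dclk1 at -2.33, Hopx at 0.37 and Cdk9 at 0.076. Without mitochondrial genes Fos was at -0.12 and Bmi1 at -0.0017. Against P5, Kit was at 0.20, Vim at 2.51, Fos at -0.16 and Prox1 at 0.037. Leaving out 1 library in turn gave ranges of -1.08 to 0.038 for Vim, -0.78 to 3.43 for Cd74, -0.34 to 0.39 for Fos and -0.098 to 1.53 for Anpep. Depth limits genes near 0 in P4, whose folds are bounds.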
